A study of Mus musculus with 33 samples.

Results

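The genes described here encode proteins of the mitochondrial ribosome in mouse livers and liver tumours with an active MYC transgene, an active form of β-catenin, or both. They are the rows of the deposited expression table whose symbol is Mrpl or Mrps followed by a number and at most 1 letter from a to c. The rule finds 76 of the 21671 genes in the table, 47 named for the large subunit (Mrpl) and 29 for the small subunit (Mrps), and it uses no measured value. All mice were C57BL/6, and total RNA was sequenced from 33 livers and tumours, with RPKM as the deposited unit, which divides the reads of a gene by its length in kilobases and by a library total in M reads. In the day 4 arm, mice aged 6 to 8 weeks received AAV8-TBG-CRE intravenously, a virus that expresses Cre recombinase from the hepatocyte promoter TBG, and livers were taken on day 4. These mice were wild type (WT), carried the beta-cat Ex3 allele of β-catenin, whose exon 3 Cre removes (Ex3), carried R26-lslMYC, a transgene that Cre switches on (MYC), or carried both alleles (MYC+Ex3), with 5 livers per genotype. The WT livers received the same virus, so Cre and viral exposure are shared by all 4 groups. In the tumour arm, primary liver nodules came from mice with R26-lslMYC and Alb-CreERT2, a recombinase under the albumin promoter that needs 4-hydroxytamoxifen (4-OHT) to act (MYC tumours, n = 3), or with b-catEx3 in addition (MYC+Ex3 tumours, n = 3). Their controls were 7 WT livers taken 4 days after intraperitoneal 4-OHT. The labels give neither the age nor the treatment of the tumour-bearing mice, nor whether the 4-OHT controls carried Cre. Age, time since Cre, nodule growth and genotype therefore cannot be told apart in the tumour comparisons.

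The mitochondrial ribosome translates the few proteins encoded by mitochondrial DNA, all of which are subunits of the respiratory chain or the ATP synthase. Its ribosomal RNAs come from mitochondrial DNA, but its proteins are encoded in the nucleus, made in the cytosol and imported. The small subunit reads the messenger RNA and the large subunit joins the amino acids. Some of the proteins have relatives in bacterial ribosomes, and others are found only in mitochondria. MYC is a transcription factor known for raising genes of cytosolic ribosome production and of mitochondrial biogenesis. The liver is rich in mitochondria, which serve its oxidative and synthetic work.

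Library depth, counted as reads in genes, was 3.75 to 7.31 M in the 20 day 4 livers and 6.65 to 9.82 M in the 13 libraries of the tumour arm. Every member had at least 33 reads in every library of each arm, and the median member had 175.5 to 468.5 reads per library at day 4 and 263.5 to 621 in the tumour arm. The whole table gave no separate check of the transgene: the mouse Myc row was at 2.57 ± 1.2 RPKM (mean ± SD, n = 5) in WT and 3.99 ± 0.75 in MYC livers at day 4 (limma adjusted p = 0.208), and the labels do not name the species of the transgene. Summed RPKM of 10 proliferation genes ran from 58.2 to 75.8 in WT, 264.5 to 584.7 in MYC and 377.5 to 595.8 in MYC+Ex3 livers, and from 29.1 to 58.0 in 4-OHT WT livers, 98.4 to 162 in MYC tumours and 157 to 189 in MYC+Ex3 tumours. Reads of the epidermal keratins Krt5, Krt14 and Krt17 were present at a summed 3.95 to 23.8 RPKM in 3 WT, 3 Ex3, 1 MYC and 3 MYC+Ex3 livers, and at no more than 0.4 RPKM in the others. This unlabelled split of the day 4 livers touches the results below, and the values are given with and without it. A set of 8 hepatocyte genes, none of them at 0, summed to 1499 to 1856 RPKM in WT and 1299 to 1739 in MYC livers, overlapping ranges. Sex, read from Xist and Ddx3y, was male in 2 WT, 3 Ex3, 3 MYC and 4 MYC+Ex3 livers of 5 per genotype, in 4 of 7 4-OHT WT livers, in all 3 MYC tumours and in 2 of 3 MYC+Ex3 tumours.

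RPKM of the arms are on different scales and are not compared with each other. In the day 4 WT livers the highest member was Mrpl30 at 100.4 ± 11 RPKM (mean ± SD, n = 5), followed by Mrpl14 at 78.4 ± 14 and Mrpl18 at 77.3 ± 9.9. The lowest members were Mrps25 at 4.61 ± 1.2, Mrpl13 at 7.73 ± 0.57 and Mrpl19 at 9.46 ± 1.4 RPKM. Mrpl14 and Mrpl18 differed by less than their SD. In the 4-OHT WT livers Mrpl30 (18.4 ± 3.0 RPKM, n = 7), Mrpl18 (16.9 ± 2.3) and Mrpl12 (16.8 ± 2.4) were highest, and Mrps34 (1.07 ± 0.44), Mrps25 (1.21 ± 0.22) and Mrpl13 (1.73 ± 0.23) were lowest. The order of the 76 members was close in both kinds of wild-type liver (rank correlation 0.956 over the 76 genes, which share the counting of the authors and are not independent replicates). Most of these proteins are present in a single copy per ribosome, whereas the mRNA of the highest member in day 4 WT livers was at 100.4 RPKM and that of the lowest at 4.61.

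At day 4, livers with MYC alone had higher mRNA of many mitochondrial ribosomal proteins and lower mRNA of none that passed the test. With limma on log2(RPKM + 1) and adjustment over all genes tested (called at an adjusted p under 0.05), 33 of 76 members rose in MYC against WT livers and 0 fell. Among all 13688 genes tested, 16.9% were called higher and 5.36% lower in that comparison. The median change of the 76 members was 0.38 on the log2 scale against 0.07 for all genes tested, and 74 members had a positive change. MYC+Ex3 against WT livers gave 36 members that rose and 0 that fell, where 17.9% of all genes were called higher and 6.18% lower. The median member change was 0.40 against 0.05 for all genes. Between MYC+Ex3 and Ex3 livers, a comparison that asks for the effect of MYC when both groups carry the β-catenin allele, 30 members rose and 0 fell, where 16.4% of all genes were called higher and 4.7% lower. The last pair of comparisons shares the MYC+Ex3 livers and the first pair shares the WT livers, so the counts are not independent of each other.

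**Figure D1:**
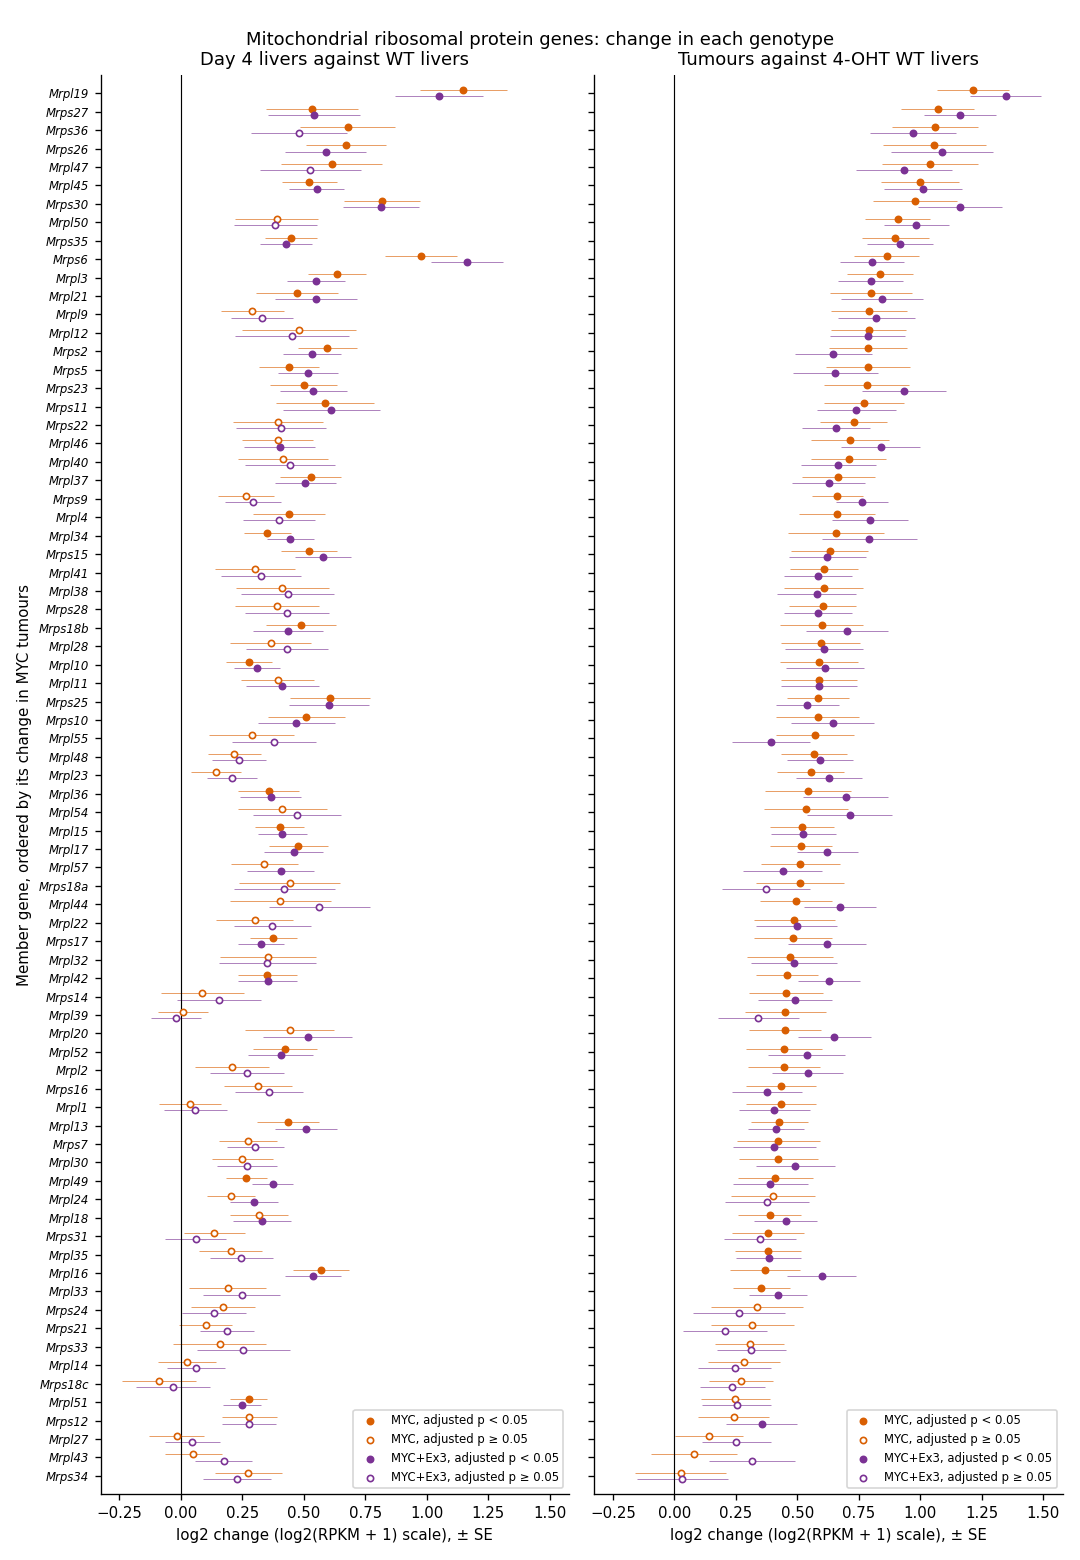
Log2 change (points) with its standard error (bars) of each of the 76 members on the log2(RPKM + 1) scale, with filled points for members called at an adjusted p under 0.05. The day 4 panel has 33 members called higher in MYC and 36 in MYC+Ex3 against WT, the tumour panel has 65 in MYC and 63 in MYC+Ex3 tumours against 4-OHT WT livers, and no member was called lower.

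Mrpl19, a large-subunit protein with a bacterial relative (bL19), showed the largest rise in MYC livers. It measured 11.9, 8.13, 9.57, 8.89 and 8.86 RPKM in the 5 WT livers and 24.3, 22.0, 20.7, 34.8 and 13.4 in the 5 MYC livers. In MYC+Ex3 livers it measured 21.9, 22.2, 20.4, 20.5 and 17.7 RPKM, and in Ex3 livers 9.55, 9.26, 7.03, 9.40 and 6.39. Every liver with MYC was above every liver without it. The log2 change was 1.15 ± 0.18 (SE, limma adjusted p = 9.82e-05) in MYC and 1.05 ± 0.18 (SE, limma adjusted p = 0.000198) in MYC+Ex3 against WT. Both calls held in every alternative setting and with each library left out in turn. On the opposite strand, Gcfc2 overlaps 39.2% of the exonic bases of Mrpl19 in GENCODE M21. Gcfc2 differed by 0.24 ± 0.14 (SE, limma adjusted p = 0.229) in MYC livers, and the strand setting of the read counting is not given in the sources used here.

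Mrps6, the small-subunit relative of bacterial bS6, followed closely. The WT livers measured 13.1, 11.6, 13.3, 13.7 and 12.9 RPKM and the MYC livers 31.6, 24.5, 22.9, 35.5 and 20.1. The MYC+Ex3 livers measured 38.3, 35.5, 24.8, 28.7 and 25.6 RPKM and the Ex3 livers 13.1, 14.99, 11.1, 13.3 and 11.9. The lowest liver with MYC was above the highest liver without it. The change against WT was 0.98 ± 0.15 (SE, limma adjusted p = 7.02e-05) in MYC and 1.16 ± 0.15 (SE, limma adjusted p = 8.17e-06) in MYC+Ex3 livers, again called in every alternative setting. Mrps6 shares 18.8% of its exonic bases with Slc5a3, a myo-inositol transporter gene on the same strand, whose own row rose by 0.69 ± 0.16 (SE, limma adjusted p = 0.00329) in MYC livers, and 36.1% with Gm49711, a protein-coding gene model on that strand whose values were not used here. Reads in the shared parts cannot be assigned to 1 gene from RPKM, so the value of Mrps6 is uncertain to that extent.

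Mrps30 and Mrpl3 separated the groups in the same way. Mrps30, a mitochondria-specific protein that despite its name sits in the large subunit, measured 33.2, 24.8, 28.4, 28.5 and 23.4 RPKM in WT and 52.8, 47.0, 43.2, 76.8 and 34.7 in MYC livers. The groups did not overlap, and the change was 0.82 ± 0.15 (SE, limma adjusted p = 0.000639). Mrpl3, the relative of bacterial uL3 beside the peptidyl transferase centre, measured 14.6, 13.7, 15.4, 12.7 and 13.7 RPKM in WT and 24.0, 21.3, 20.7, 29.5 and 17.8 in MYC livers, also without overlap. Its change was 0.64 ± 0.12 (SE, limma adjusted p = 0.000581). In all, 7 of 76 members (Mrpl3, Mrpl19, Mrps2, Mrps6, Mrps25, Mrps30 and Mrps35) had every MYC liver above every WT liver. That share is below the 10.9% of all genes tested that were so separated. In MYC+Ex3 against WT livers, 26 members were so separated (13.5% of all genes), and in MYC+Ex3 against Ex3 livers 44 (15.2% of all genes).

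The other members among the 4 largest rises of a day 4 comparison overlapped their controls in MYC livers. Mrps36 measured 26.2, 13.5, 17.7, 17.2 and 10.5 RPKM in WT and 26.04, 24.8, 24.2, 36.3 and 23.8 in MYC livers, where the first WT liver was as high as most MYC livers. Its change was 0.68 ± 0.19 (SE, limma adjusted p = 0.0157) in MYC livers, and in MYC+Ex3 livers the difference was 0.48 ± 0.19 (SE, limma adjusted p = 0.0772). The call in MYC livers held in 8 of 13 alternative settings. Mrps11 encodes the relative of bacterial uS11 on the platform of the small subunit. It measured 37.0, 16.05, 28.8, 28.4 and 17.4 RPKM in WT and 36.0, 41.3, 38.4, 36.1 and 37.2 in MYC+Ex3 livers, overlapping groups, and rose by 0.61 ± 0.20 (SE, limma adjusted p = 0.0291). Mrpl47, the relative of bacterial uL29 near the tunnel exit, measured 19.2, 20.1, 14.98, 16.8 and 22.3 RPKM in Ex3 and 31.9, 37.6, 29.0, 34.2 and 28.8 in MYC+Ex3 livers. Here no liver with MYC fell within the range of the Ex3 livers, and the change was 0.77 ± 0.21 (SE, limma adjusted p = 0.0107).

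Mrps2 and Mrps25 belong to the 7 members that separated MYC from WT livers. Mrps2, the relative of bacterial uS2, measured 21.7, 22.0, 25.1, 21.8 and 26.7 RPKM in WT and 41.7, 40.6, 32.1, 36.1 and 30.0 in MYC livers. It rose by 0.60 ± 0.12 (SE, limma adjusted p = 0.00115), and by 0.79 ± 0.16 (SE, limma adjusted p = 0.00107) in MYC tumours. Mrps25, a mitochondria-specific small-subunit protein and the lowest member at day 4, measured 5.27, 2.59, 5.27, 5.46 and 4.48 RPKM in WT and 8.19, 7.17, 6.16, 10.0 and 5.89 in MYC livers. It rose by 0.61 ± 0.16 (SE, limma adjusted p = 0.0103).

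The MYC replicates were not equally high. The fourth MYC liver, the only one of its group with keratin reads, was the highest MYC liver for Mrpl19, Mrps6, Mrps30 and Mrpl3, and the fifth was the lowest. The members' median log2(RPKM + 1) minus that of all genes was 1.81, 1.85, 1.73, 2.15 and 1.30 in MYC livers 1 to 5, against 1.74, 1.33, 1.58, 1.61 and 1.47 in WT livers. The MYC and WT ranges of this summary overlapped. In MYC+Ex3 livers it ran from 1.65 to 1.91, which also overlapped the WT livers. In Ex3 livers it ran from 1.49 to 1.61, below all MYC+Ex3 livers. By Xist and Ddx3y, MYC liver 4 was male and MYC liver 5 female. Every female liver lay below every male liver on this summary within the MYC group and within the WT group. Within the Ex3 and MYC+Ex3 groups the sexes overlapped. The part of sex in this spread was not tested. Without MYC liver 4, 20 members passed the test against WT, where 13.5% of all genes were called higher. Without MYC liver 5, 51 members did, where 18.5% of all genes were. Members took 0.319 to 0.435% of reads in WT, 0.376 to 0.616% in MYC and 0.461 to 0.509% in MYC+Ex3 livers.

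**Figure D2:**
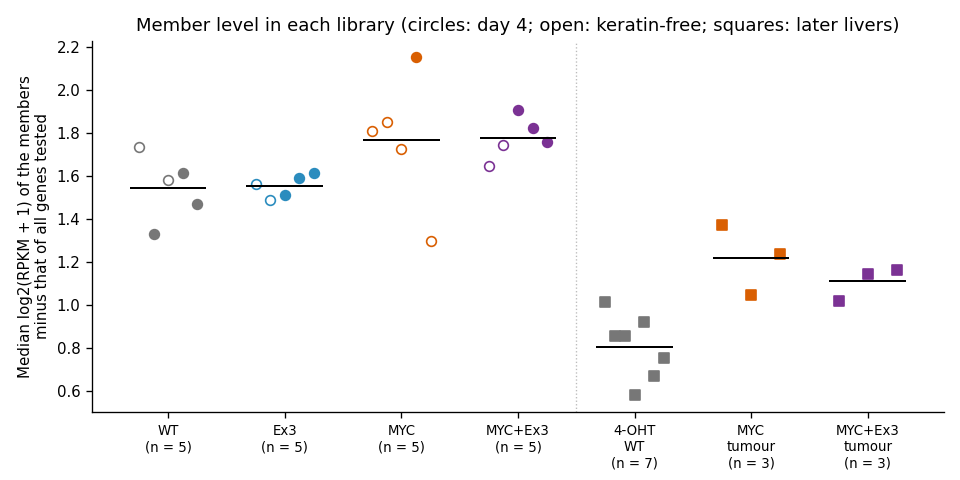
Median log2(RPKM + 1) of the 76 members minus the median of all genes tested, 1 point per library by group, with open circles for day 4 livers free of keratin reads. The MYC livers span 1.30 to 2.15 and overlap the WT livers (1.33 to 1.74). Both tumour groups (1.02 to 1.37) lie above the 4-OHT WT livers (0.58 to 1.01), but only just. The nearest libraries are MYC+Ex3 tumour 1 at 1.018 and 4-OHT WT liver 1 at 1.012.

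The day 4 counts differed between livers with and without keratin reads. Among the keratin-free livers only (2 WT, 2 Ex3, 4 MYC, 2 MYC+Ex3), 3 members (3.95%) rose in MYC against WT, where 7.09% of all genes were called higher. They were Mrpl19, Mrps2 and Mrps6, and the median member change was 0.14. There, 6 members rose in MYC+Ex3 against WT (7.89%, against 14.1% of all genes), and in MYC+Ex3 against Ex3, 9 rose (11.8%, against 12.4%). The members' share called was thus below that of all genes in these smaller comparisons. Among the keratin-bearing livers only (3 WT, 3 Ex3, 3 MYC+Ex3), 46 members (60.5%) rose in MYC+Ex3 against WT, where 15% of all genes did, and 20 (26.3%) against Ex3, where 10.7% did. The single keratin-bearing MYC liver allows no such comparison for MYC alone. With the keratin split as a term in the fit of all 20 livers, 32, 44 and 35 members rose in the 3 comparisons, where 17.8%, 21.4% and 19.3% of all genes were called higher. The part that the keratin split has in the day 4 result was not tested further.

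No member passed the test with the β-catenin allele alone. In Ex3 against WT livers limma called 0 members in either direction (2 at an unadjusted p under 0.05), where 0.132% of all genes were called higher and 0% lower. The authors' deposited table also called 0. The median member change was 0.04. Mrpl19 differed by -0.17 ± 0.18 (SE, limma adjusted p = 1), and Mrps6 by -0.01 ± 0.15 (SE, limma adjusted p = 1). In MYC+Ex3 against MYC livers 0 members were called, where 0.19% of all genes were called higher and 0% lower, and the median change was 0.02. For the interaction, the effect of both alleles beyond the sum of each, 0 members and 0% of all genes were called higher or lower. These comparisons do not show that the groups are equal: the 95% confidence interval of a member's Ex3 effect reached a median of 0.29 to either side on the log2 scale.

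In the tumours the mRNA of most members was higher than in the 4-OHT livers. In MYC tumours 65 of 76 members rose and 0 fell, where 36.2% of all 11854 genes tested were called higher and 13.7% lower. In MYC+Ex3 tumours 63 rose and 0 fell, where 42.3% of genes were called higher and 18.4% lower. All 76 members had a positive change in both comparisons, which share their 7 control livers. The median member change was 0.55 in MYC and 0.60 in MYC+Ex3 tumours. The median over all genes was itself above 0, at 0.19 and 0.23, so the members' median lay 0.36 and 0.37 above it. In 34 members every MYC tumour was above every control liver (26.3% of all genes), and in 50 every MYC+Ex3 tumour was (38.2% of all genes). Summed RPKM of 7 macrophage genes was 104 to 139.9 in the controls, 26.6 to 109 in MYC tumours and 47.9 to 59.1 in MYC+Ex3 tumours, and that of 6 endothelial genes was 40.5 to 68.1, 23.3 to 37.3 and 24.97 to 29.7. Summed RPKM of 4 erythroid genes was 13.2 to 30.6 in the controls, 10.35 to 61.6 in MYC tumours and 63.97 to 79.05 in MYC+Ex3 tumours. For 7 stellate cell and fibroblast genes it was 35.5 to 45.7, 24.5 to 44.3 and 22.15 to 28.3, and for 6 cholangiocyte genes 9.97 to 14.7, 6.68 to 19.7 and 3.67 to 8.45. The MYC+Ex3 tumours thus lay outside the control range on all 5 lists, and the MYC tumours overlapped it on all but the endothelial list. No gene of these lists was at 0 in every library of a group. For 6 lymphocyte genes and 8 hepatocyte genes both tumour groups overlapped the controls. The part of these shifts in the members' change was not tested. In bulk tissue, fewer cells of a type and less RNA per cell cannot be told apart.

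Mrpl19 was again among the largest changes. It measured 1.69 to 3.06 (median 2.10) RPKM in the 7 control livers, 6.48, 4.85 and 8.07 in the MYC tumours and 6.37, 7.04 and 7.83 in the MYC+Ex3 tumours. All 6 tumours were above all controls. The change was 1.21 ± 0.15 (SE, limma adjusted p = 2.24e-05) in MYC and 1.35 ± 0.15 (SE, limma adjusted p = 3.74e-06) in MYC+Ex3 tumours. Mrps27, a mitochondria-specific small-subunit protein of the pentatricopeptide repeat type, measured 3.19 to 5.65 (median 4.02) RPKM in controls, 9.99, 8.61 and 11.5 in MYC tumours and 9.96, 10.3 and 12.0 in MYC+Ex3 tumours. It did not overlap the controls in either tumour group. Its change was 1.07 ± 0.15 (SE, limma adjusted p = 6.12e-05) and 1.16 ± 0.15 (SE, limma adjusted p = 1.44e-05). At day 4 Mrps27 rose by 0.53 ± 0.19 (SE, limma adjusted p = 0.0458) in MYC livers, and it passed the test in 5 of 13 alternative settings and failed it in 11 of 20 fits with 1 library left out.

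Mrps36, Mrps26 and Mrps30 were also among the 4 largest rises of a tumour comparison. Mrps36 measured 3.37 to 7.59 (median 4.72) RPKM in controls, 9.71, 10.9 and 13.4 in MYC tumours and 10.4, 9.49 and 11.7 in MYC+Ex3 tumours, all tumours above all controls. Despite its name, the product of Mrps36 is now known as a component of the 2-oxoglutarate dehydrogenase complex. Its change was 1.06 ± 0.17 (SE, limma adjusted p = 0.00024) in MYC tumours. Mrps26, a mitochondria-specific small-subunit protein, measured 5.69 to 12.1 (median 6.91) RPKM in controls and 21.4, 12.1 and 18.8 in MYC tumours, without overlap. The change was 1.06 ± 0.21 (SE, limma adjusted p = 0.00095). Mrps30 measured 3.42 to 6.67 (median 5.33) RPKM in controls, 11.5, 8.19 and 12.1 in MYC tumours and 10.7, 11.5 and 14.1 in MYC+Ex3 tumours, without overlap. Its change was 1.16 ± 0.17 (SE, limma adjusted p = 5.16e-05) in MYC+Ex3 tumours.

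**Figure D3:**
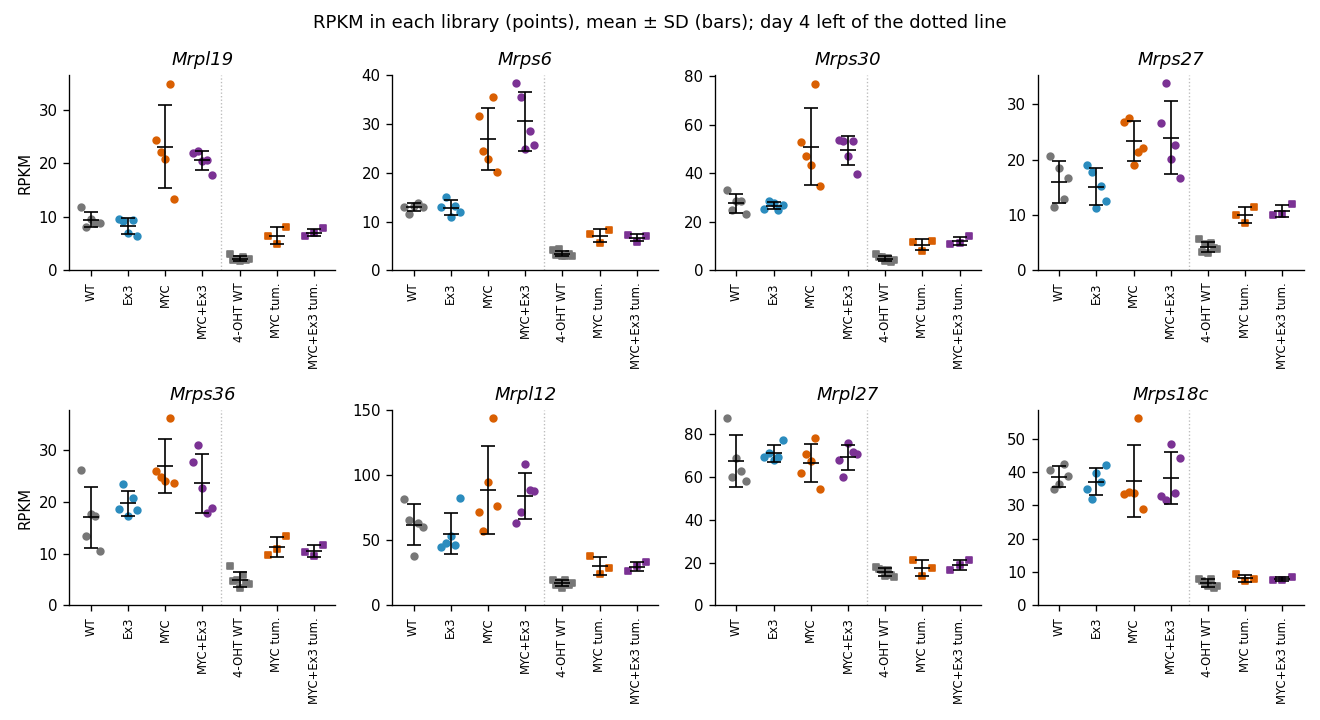
RPKM of 8 members in every library (points) with the group mean ± SD, with the day 4 groups left and the tumour arm right of the dotted line, whose RPKM scales differ. Mrpl19, Mrps6 and Mrps30 separate livers with MYC from WT livers, whereas Mrpl27 and Mrps18c overlap between groups at day 4.

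No member passed the test between the tumour genotypes. Between MYC+Ex3 and MYC tumours 0 members were called (0 at an unadjusted p under 0.05, and 0 in the authors' deposited table), where 2.02% of all genes were called higher and 2.1% lower. The median change was 0.01, and single members ran from -0.18 to 0.24. With 3 tumours a side the 95% confidence interval reached a median of 0.39 to either side, so smaller differences could be missed.

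Most members that passed the test at day 4 also passed it in tumours, as did most genes. Of the 33 called in MYC livers, 32 (97.0%) were among the 65 called in MYC tumours, 49.2% of those, and the exception was Mrpl51. Of the 36 called in MYC+Ex3 livers, 34 (94.4%) were among the 63 called in MYC+Ex3 tumours, 54.0% of those, and the exceptions were Mrpl24 and Mrpl51. Over the 11714 genes tested in both arms, 90.1% of those called higher in MYC livers were also called in MYC tumours, and 91.8% of those called in MYC+Ex3 livers in MYC+Ex3 tumours. The members' overlap was therefore close to that of all genes. The arms have no library in common. In the 5 comparisons of a MYC group with a group without it, 24 members were called higher in all 5: Mrpl3, Mrpl10, Mrpl13, Mrpl15, Mrpl16, Mrpl17, Mrpl19, Mrpl21, Mrpl37, Mrpl42, Mrpl45, Mrps2, Mrps5, Mrps6, Mrps10, Mrps11, Mrps15, Mrps18b, Mrps23, Mrps25, Mrps26, Mrps27, Mrps30 and Mrps35. Another 8 were called in none: Mrpl14, Mrpl27, Mrpl43, Mrps18c, Mrps21, Mrps24, Mrps33 and Mrps34. The remaining 44 were called in 1 to 4 of the 5. That is 31.6% of members in all 5 and 10.5% in none, where 13.7% of the 11714 genes were called higher in all 5 and 52.9% in none. These comparisons share WT, MYC+Ex3 or 4-OHT livers, so a gene's calls are not independent of each other. The lists of 24 and 8 follow from the values and are given as a description.

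By role, the calls were spread over the ribosome. Of 29 large-subunit proteins with bacterial relatives, 12 rose in MYC livers, 14 in MYC+Ex3 livers, and 26 in each tumour group. Of 20 large-subunit proteins found only in mitochondria, 7, 9, 18 and 16 rose in the same order. Of 17 small-subunit proteins with bacterial relatives, 8, 8, 13 and 14 rose, and of 9 found only in mitochondria 5, 5, 7 and 6. Mrps36 stands in none of these lists. None fell in any of these groups. In the same order, 16.9%, 17.9%, 36.2% and 42.3% of all genes tested were called higher. The shares of these groups were not tested against each other.

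The stalk of the large subunit, which recruits translation factors, is represented here by Mrpl10, Mrpl11, Mrpl12 and Mrpl54. Of these 4, 1 rose in MYC livers, 2 in MYC+Ex3 livers and 4 in each tumour group. Among all genes tested, 16.9% were called higher in MYC livers, 17.9% in MYC+Ex3 livers, 36.2% in MYC tumours and 42.3% in MYC+Ex3 tumours. Mrpl10, the stalk base, rose by 0.28 ± 0.09 (SE, limma adjusted p = 0.0386) in MYC livers and by 0.59 ± 0.16 (SE, limma adjusted p = 0.00708) in MYC tumours. Mrpl12, which also binds the mitochondrial RNA polymerase, measured 81.8, 65.7, 38.0, 63.3 and 60.1 RPKM in WT and 71.8, 56.8, 94.5, 144 and 76.3 in MYC livers, overlapping groups whose difference was 0.48 ± 0.23 (SE, limma adjusted p = 0.142). In MYC tumours it rose by 0.79 ± 0.15 (SE, limma adjusted p = 0.000787). Mrpl11 differed by 0.39 ± 0.15 (SE, limma adjusted p = 0.0621) in MYC livers and rose by 0.41 ± 0.15 (SE, limma adjusted p = 0.0484) in MYC+Ex3 livers. That call held in 5 of 13 alternative settings and was lost in 16 of the 20 fits with 1 library left out, and the call of Mrpl10 in MYC livers held in 7 of 13 settings and was lost in 6 of 20.

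Around the exit tunnel, where new proteins leave toward the inner membrane, 2 of 5 members rose at day 4 in either MYC group and 4 of 5 in either tumour group. The share of all genes called higher was 16.9% and 17.9% at day 4 and 36.2% and 42.3% in the tumours. Mrpl45, which anchors the ribosome to the inner membrane, rose by 0.52 ± 0.11 (SE, limma adjusted p = 0.00194) in MYC livers and by 1.00 ± 0.16 (SE, limma adjusted p = 0.000191) in MYC tumours. Mrpl24, at the tunnel exit, differed by 0.40 ± 0.17 (SE, limma adjusted p = 0.0636) in MYC tumours. Mrpl4, a large-subunit protein outside that list, rose by 0.44 ± 0.15 (SE, limma adjusted p = 0.0342) in MYC livers, a call that held in 7 of 13 alternative settings.

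Of the small subunit, Mrps5, at the entry of the messenger RNA channel, rose by 0.44 ± 0.12 (SE, limma adjusted p = 0.0135) in MYC livers and 0.79 ± 0.17 (SE, limma adjusted p = 0.00193) in MYC tumours. Mrps12, of the decoding centre, differed by 0.28 ± 0.11 (SE, limma adjusted p = 0.0772) in MYC livers and rose by 0.35 ± 0.14 (SE, limma adjusted p = 0.0465) in MYC+Ex3 tumours. Mrps22, a mitochondria-specific protein, rose by 0.73 ± 0.14 (SE, limma adjusted p = 0.000664) in MYC tumours, as did Mrps16 by 0.43 ± 0.14 (SE, limma adjusted p = 0.02). Mrps7, of the small-subunit head, was only just called in MYC tumours, at 0.42 ± 0.17 (SE, limma adjusted p = 0.0495). Its call held in 1 of 10 alternative settings and was lost in 10 of the 13 fits with 1 library left out. The call of Mrps12 in MYC+Ex3 tumours held in 5 of 10 settings and was lost in 7 of 13, and that of Mrps16 in MYC tumours held in 6 of 10.

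The S18 family has 3 paralogs that all resemble bacterial bS18. Mrps18b, the small-subunit paralog called mS40, rose by 0.49 ± 0.14 (SE, limma adjusted p = 0.0178) in MYC livers, by 0.60 ± 0.17 (SE, limma adjusted p = 0.00896) in MYC tumours and by 0.70 ± 0.17 (SE, limma adjusted p = 0.00236) in MYC+Ex3 tumours. Mrps18a, which sits in the large subunit, differed by 0.44 ± 0.21 (SE, limma adjusted p = 0.128) in MYC livers, rose by 0.51 ± 0.18 (SE, limma adjusted p = 0.0291) in MYC tumours and differed by 0.37 ± 0.18 (SE, limma adjusted p = 0.0874) in MYC+Ex3 tumours. Its call in MYC tumours held in 5 of 10 alternative settings. Mrps18c, the paralog at the bS18 position, measured 40.8, 34.8, 36.6, 42.4 and 38.8 RPKM in WT and 33.5, 33.9, 33.6, 56.3 and 28.9 in MYC livers. These groups overlapped, with a difference of -0.09 ± 0.15 (SE, limma adjusted p = 0.726). In tumours the difference was 0.27 ± 0.13 (SE, limma adjusted p = 0.101) with MYC and 0.24 ± 0.13 (SE, limma adjusted p = 0.134) with both alleles. The differences between the paralogs were not tested. Of the members called in none of the 5 comparisons, Mrpl27, a relative of bL27 near the peptidyl transferase centre, is another example, with a difference of -0.02 ± 0.11 (SE, limma adjusted p = 0.941) and a 95% confidence interval from -0.25 to 0.22 in MYC livers.

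The remaining members called in none of the 5 comparisons had positive differences in the tumours that did not pass the test. The median over all genes was also above 0 there. After the rescaling described below, 3 of all members had a negative change in MYC tumours and 2 in MYC+Ex3 tumours. Mrpl14, the second highest member in day 4 WT livers and a relative of bacterial uL14 at the face between the subunits, measured 97.1, 67.9, 86.2, 77.1 and 63.7 RPKM in WT and 74.2, 90.8, 76.1, 87.7 and 68.0 in MYC livers. The groups overlapped, and the difference was 0.03 ± 0.12 (SE, limma adjusted p = 0.907). Mrps34, a mitochondria-specific small-subunit protein, measured 0.694 to 1.80 (median 0.875) RPKM in the 4-OHT WT livers and 1.06, 0.763 and 1.45 in the MYC tumours. Its level was the lowest of all members there, and the difference was 0.03 ± 0.18 (SE, limma adjusted p = 0.919). Mrpl43 differed by 0.08 ± 0.18 (SE, limma adjusted p = 0.729) in MYC tumours and by 0.32 ± 0.18 (SE, limma adjusted p = 0.135) in MYC+Ex3 tumours. Mrpl30, the member with the highest mRNA level in both kinds of wild-type liver, rose by 0.42 ± 0.16 (SE, limma adjusted p = 0.0418) in MYC tumours and differed by 0.25 ± 0.12 (SE, limma adjusted p = 0.152) in MYC livers.

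The counts also differed with mRNA level, a difference that was not tested. Of the 38 members with the lower mean RPKM, 23, 22, 35 and 34 rose in MYC livers, MYC+Ex3 livers, MYC tumours and MYC+Ex3 tumours, and of the 38 with the higher mean, 10, 14, 30 and 29. The rank correlation of change with level across the 76 members was -0.35, -0.35, -0.28 and -0.21 in that order. Other genes in the members' range of levels gave -0.18, -0.16, -0.15 and -0.11. Genes are not independent replicates, and these values describe these libraries.

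Genes that work with the mitochondrial ribosome were called higher in shares that depended on the list. Among all genes tested, 16.9% were called higher in MYC livers, 17.9% in MYC+Ex3 livers, 36.2% in MYC tumours and 42.3% in MYC+Ex3 tumours. Of 6 ribosomal proteins of mitochondria that carry other symbols, 2 rose in MYC livers, 2 in MYC+Ex3 livers and 5 in each tumour group. Among them, Ptcd3 (mS39) rose by 0.69 ± 0.13 (SE, limma adjusted p = 0.00074) in MYC livers and 1.18 ± 0.13 (SE, limma adjusted p = 5.7e-06) in MYC+Ex3 tumours, and Dap3 (mS29) by 0.51 ± 0.10 (SE, limma adjusted p = 0.000861) in MYC+Ex3 livers. Of 23 assembly factors, 11, 8, 17 and 18 rose in the 4 comparisons (47.8%, 34.8%, 73.9% and 78.3%). The GTPase Noa1 was among the largest in tumours, with 1.09 ± 0.15 (SE, limma adjusted p = 7.39e-05) in MYC tumours. Of 15 factors of mitochondrial translation, 5, 5, 13 and 10 rose (33.3% at day 4 in both groups, 86.7% and 66.7% in tumours). Tufm, the elongation factor that brings transfer RNAs to the ribosome, rose by 0.51 ± 0.12 (SE, limma adjusted p = 0.0041) in MYC livers and 0.48 ± 0.13 (SE, limma adjusted p = 0.00861) in MYC tumours. Of 10 genes of mitochondrial DNA transcription and replication, 2, 3, 8 and 7 rose (20%, 30%, 80% and 70%). Of 8 regulators of mitochondrial biogenesis, 2, 2, 5 and 5 rose, among them Pprc1, a coactivator of the PGC-1 family, by 0.83 ± 0.24 (SE, limma adjusted p = 0.017) in MYC livers. That is 25% at day 4 and 62.5% in tumours. For the last pair of lists in MYC livers, the count differs by less than 1 gene from the share of all genes. None of these lists had a gene called lower. After the rescaling described below, 1 assembly factor was called lower in each tumour group and 1 translation factor in MYC+Ex3 tumours.

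**Figure D4:**
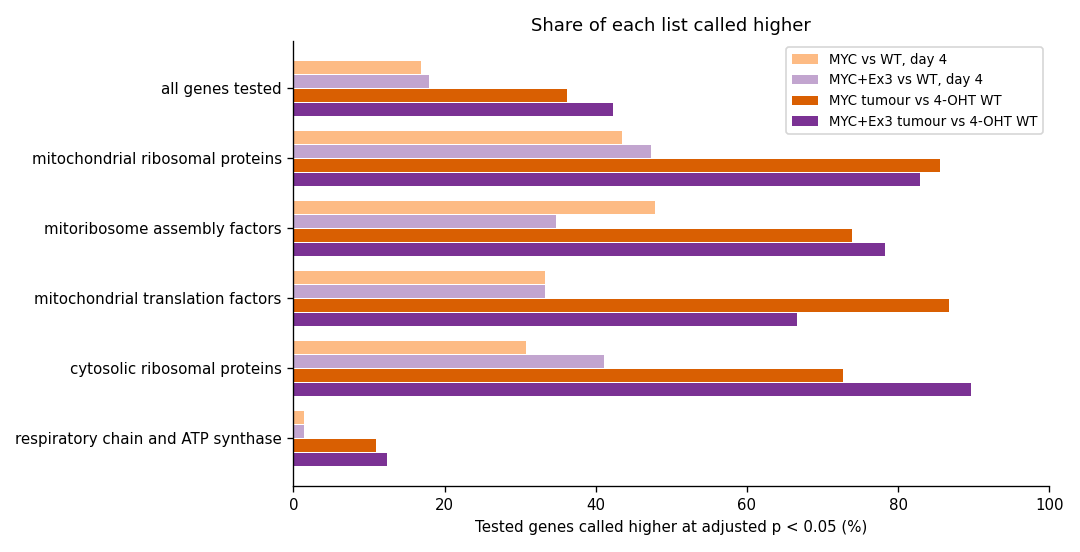
Percent of each gene list called higher (bars) in MYC and MYC+Ex3 livers at day 4 and in both tumour groups, against WT and 4-OHT WT livers. The mitochondrial ribosomal protein genes reach 43.4% in MYC livers, where 16.9% of all genes were called higher, and the respiratory chain has the lowest share of the lists drawn.

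The subunits of the respiratory chain and the ATP synthase, the complexes that hold the products of mitochondrial translation, had few calls. Of 73 nuclear genes of these complexes, 1, 1, 8 and 9 rose and 0 fell, with median changes of 0.01, 0.03, 0.21 and 0.17. After rescaling, 1 of them was called lower in MYC livers, 1 higher in MYC tumours, and 1 higher and 2 lower in MYC+Ex3 tumours. Cytosolic ribosomal protein genes rose in 24 of 78 and 32 of 78 at day 4, and in 56 of 77 and 69 of 77 in tumours. Among all genes tested, 16.9%, 17.9%, 36.2% and 42.3% were called higher in the 4 comparisons. After rescaling, 7, 9, 22 and 33 of the cytosolic genes rose, where 13.8%, 15%, 27% and 33.7% of all genes did. Neither list was tested against the members. The lists differ in how their reads followed depth. Within each arm, the recovered reads of a member grew by a median of 0.793 (day 4) and 0.825 (tumour arm) log2 units per log2 unit of library depth, those of cytosolic ribosomal protein genes by 0.271 and 0.264, those of the respiratory chain by 0.457 and 0.463, and those of other genes by 1.22 and 1.17. A value under 1 means that a gene tends to take a smaller share of the reads in genes in deeper libraries. The part of this in the lists' counts was not tested.

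No member was called lower under any setting tried, and the counts of members called higher changed with the setting. After rescaling each library by its median ratio to the geometric mean library, 17 members (22.4%) rose in MYC livers, where 13.8% of all genes were called higher, 21 (27.6%) in MYC+Ex3 livers against 15%, and 22 (28.9%) in MYC+Ex3 against Ex3 livers, where 14.2% were. In the tumours 46 (60.5%, against 27% of all genes) and 52 (68.4%, against 33.7%) rose. The share of higher among all calls moved from 75.9% to 59.1% in MYC livers, from 74.4% to 61.2% in MYC+Ex3 livers, from 77.7% to 67.0% against Ex3, and from 72.6% to 53.4% and from 69.7% to 55.2% in the tumours. The authors' deposited table called 10 members higher in MYC livers (13.2%, against 12.5% of its genes) and 21 in MYC+Ex3 livers (27.6%, against 16.3%). For the tumours the authors' deposited table called 43 (56.6%, against 24.4%) and 53 (69.7%, against 30.7%). It called 0 members lower in any of these comparisons. In MYC livers, therefore, the members' share in the authors' deposited table was near the share of all its genes. Among male libraries only, 32 members rose in MYC tumours (42.1%, against 24.7% of all genes) and 24 in MYC+Ex3 tumours (31.6%, against 25.7%).

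**Figure D5:**
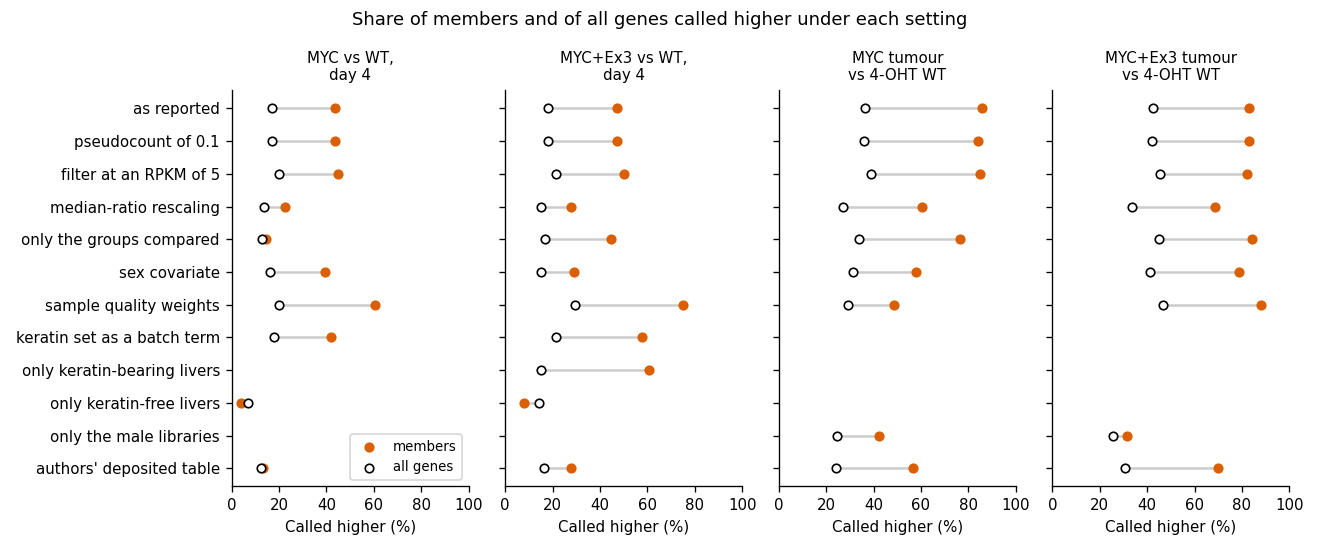
Percent of the 76 members and of all genes called higher under each setting and in the authors' deposited table, for 4 comparisons of a MYC group with its control. In keratin-free MYC livers the members' 3.95% lies below the 7.09% of all genes, and in MYC tumours the members' share exceeds that of all genes in each setting drawn.

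Promoter sequences are given because many members rose together. RefSeq promoter sequences (GRCm38.p6, 250 bases before to 50 bases after the annotated start) were available for 67 of the 76 members. The search covered 4 motifs on both strands. They were the canonical E-box CACGTG, a MYC-MAX site, GCGCATGCG for NRF1, CCGGAAGT for the ETS family and GCCATNTTG for YY1. No 2 matches of different motifs overlapped. The NRF1 motif was present in 7 members with a promoter (10.4%, against 1.95% of all 27025 genes in the promoter table), the ETS motif in 12 (17.9%, against 4.31%), and the YY1 motif in 11 (16.4%, against 2.9%). The E-box was present in 5 (7.46%, against 8.09%). Of the 15638 genes in the expression table with a promoter, the shares were 2.79% for NRF1, 5.96% for ETS, 3.51% for YY1 and 9.39% for the E-box. In MYC livers the median change of members with the E-box was 0.36 (n = 5), and that of members with none of the 4 motifs was 0.39 (n = 35). In MYC tumours the corresponding medians were 0.45 and 0.59. A match describes the letters of this window and is not a measured binding site.

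Shown first are 4 members called in all 5 comparisons, then 2 that passed no test at day 4, each 5′ to 3′ on the gene's strand with the motif letters in capitals. Mrps27 lies at chr13:99344536-99344835 (plus strand), with YY1 matches at bases -121 to -113 and 14 to 22 from the start and an ETS match at -49 to -42. Mrpl10 lies at chr11:97041332-97041631 (plus strand), with an NRF1 match at -135 to -127. Mrps26 lies at chr2:130563507-130563806 (plus strand), with an ETS match at -15 to -8. Mrpl37 lies at chr4:107066817-107067116 (minus strand), with an E-box at -162 to -157. Mrps18c lies at chr5:100798509-100798808 (plus strand), with an E-box at -163 to -158 directly followed by an ETS match at -157 to -150. Mrpl39 lies at chr16:84735195-84735494 (minus strand), with an NRF1 match on each strand at -125 to -117 and -124 to -116.
Mrps27: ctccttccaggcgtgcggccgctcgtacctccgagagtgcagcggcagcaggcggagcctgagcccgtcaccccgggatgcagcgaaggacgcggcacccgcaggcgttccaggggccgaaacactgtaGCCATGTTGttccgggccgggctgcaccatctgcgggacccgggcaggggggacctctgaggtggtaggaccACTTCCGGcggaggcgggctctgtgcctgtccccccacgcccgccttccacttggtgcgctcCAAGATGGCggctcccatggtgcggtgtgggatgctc
Mrpl10: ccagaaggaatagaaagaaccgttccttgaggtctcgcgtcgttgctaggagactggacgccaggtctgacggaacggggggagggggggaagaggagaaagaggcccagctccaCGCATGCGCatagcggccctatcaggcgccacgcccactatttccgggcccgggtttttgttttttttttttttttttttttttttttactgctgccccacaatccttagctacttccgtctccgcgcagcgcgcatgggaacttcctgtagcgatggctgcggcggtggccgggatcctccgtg
Mrps26: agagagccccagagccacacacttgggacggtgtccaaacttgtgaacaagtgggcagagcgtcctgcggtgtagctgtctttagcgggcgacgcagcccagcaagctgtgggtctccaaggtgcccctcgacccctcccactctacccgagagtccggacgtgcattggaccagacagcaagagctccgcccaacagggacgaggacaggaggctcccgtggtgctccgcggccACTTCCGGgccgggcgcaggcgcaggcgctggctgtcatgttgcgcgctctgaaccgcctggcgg
Mrpl37: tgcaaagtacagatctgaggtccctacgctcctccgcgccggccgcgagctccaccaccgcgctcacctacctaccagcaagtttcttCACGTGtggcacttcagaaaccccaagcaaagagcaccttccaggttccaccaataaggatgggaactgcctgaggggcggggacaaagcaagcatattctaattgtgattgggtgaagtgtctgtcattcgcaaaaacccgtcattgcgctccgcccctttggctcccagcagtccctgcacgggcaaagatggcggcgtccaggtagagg
Mrps18c: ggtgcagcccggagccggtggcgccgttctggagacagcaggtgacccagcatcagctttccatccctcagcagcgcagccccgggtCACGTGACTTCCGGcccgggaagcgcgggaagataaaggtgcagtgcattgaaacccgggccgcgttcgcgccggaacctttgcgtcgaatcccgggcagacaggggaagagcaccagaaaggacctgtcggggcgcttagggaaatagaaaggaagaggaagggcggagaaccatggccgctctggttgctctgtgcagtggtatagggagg
Mrpl39: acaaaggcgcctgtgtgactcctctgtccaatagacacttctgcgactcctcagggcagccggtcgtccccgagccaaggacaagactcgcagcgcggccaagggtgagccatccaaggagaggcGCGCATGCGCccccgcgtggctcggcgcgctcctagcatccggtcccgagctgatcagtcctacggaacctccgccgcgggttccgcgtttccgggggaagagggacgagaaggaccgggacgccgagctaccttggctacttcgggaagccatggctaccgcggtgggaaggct
The 5 members with an E-box are Mrpl2, Mrpl20, Mrpl36, Mrpl37 and Mrps18c. Of these, 2 rose in MYC livers, 3 in MYC+Ex3 livers and 4 in each tumour group. The shares of all genes called higher were 16.9% and 17.9% at day 4 and 36.2% and 42.3% in the tumours. Among them Mrpl37 rose by 0.53 ± 0.12 (SE, limma adjusted p = 0.00407) in MYC livers, and Mrps18c differed by -0.09 ± 0.15 (SE, limma adjusted p = 0.726). Mrpl39 differed by 0.01 ± 0.10 (SE, limma adjusted p = 0.971) in MYC livers and rose by 0.45 ± 0.16 (SE, limma adjusted p = 0.0341) in MYC tumours.

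A feature of position was more frequent among the members than among other genes. In GENCODE M21, 21 of the 76 (27.6%) start within 1000 bases of a protein-coding gene on the opposite strand that runs the other way, against 6.999% of other protein-coding genes, and Mrpl46 and Mrps11 face each other in this way. The 76 members lie on 17 chromosomes, with at most 10 on 1. Exons of 3 members overlapped another gene on the same strand by at least 10% of their bases, and those of 11 members did so on the opposite strand. The first are Mrpl33, Mrps6 and Mrps18c, and the second are Mrpl10, Mrpl12, Mrpl13, Mrpl19, Mrpl24, Mrpl43, Mrpl47, Mrps18b, Mrps25, Mrps27 and Mrps30. If the counting did not use strand, reads of these genes and their partners cannot be told apart. Mrps25 overlaps Nr2c2 on the opposite strand over 58.2% of its exonic bases. Nr2c2 fell by 0.36 on the log2 scale in MYC livers (limma adjusted p = 0.0129), whereas Mrps25 rose by 0.61 ± 0.16 (SE, limma adjusted p = 0.0103).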

How the data were processed

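RNA was sequenced from TruSeq stranded total RNA libraries on a NovaSeq or an older Illumina instrument, per the labels' protocols. The submitters' processing notes name TopHat2 2.0.8, SAMtools, featureCounts 1.4.5-p1, DESeq2 and mm9, with no role or order. The strand setting of the counting and any removal of duplicate reads are not given in the sources used here. The authors deposited RPKM for 21671 genes and 33 libraries. For their own comparisons the authors deposited log2 fold changes and adjusted p-values, which came from DESeq2 by the name the authors gave the table and are used only where the authors' deposited table is named. No column belonged to another series.

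Reads behind the RPKM were recovered from the ratios between libraries (whole to within 0.01 for 100% of the 20485 genes above 0) and used only for depth and for counts per gene. The main test was limma 3.58.1 (R 4.3.3), two-sided, on log2(RPKM + 1), with the prior variance following mean expression and Benjamini-Hochberg adjustment over all genes tested in each of 9 comparisons. A gene was called at an adjusted p under 0.05 and tested when at least 3 libraries in the fit had an RPKM of 1 or more. Changes on this scale understate those of low genes. The 20 day 4 livers were 1 fit and the 13 libraries of the tumour arm another. The scripts were tested on simulated data. Groups came from titles and genotype labels, and no label says that libraries of a group came from separate animals. The p-values therefore set group differences against the spread between these libraries, which need not be the spread between animals. To look for repeated deposits of 1 library, counts were compared within groups, and no pair agreed within sampling noise (67 pairs, smallest chi-square per degree of freedom 3.07). The members and gene lists were chosen with earlier results of these data known. The text names the 4 largest rises per comparison, a panel by role and the 3 highest and lowest members in WT livers, and other members named were chosen after their values were seen, as were the sets of keratin-bearing and keratin-free livers, the male-only libraries and the title number terms. Alternatives were another pseudocount, other filters, rescaling, fits of only the groups compared, terms for sex, keratin and title number series, quality weights, parts of the 4-OHT livers and each library left out. Promoters were searched with Python 3.11.15.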

Additional observations from a re-analysis of the deposited data

Results flagged for a closer look

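In 7 of the 150 groups of 4 to 10 libraries examined for the 30 named members, 1 library stood far from the rest of its group (Dixon's criterion at 95%). Chance flags about 1 in 20 groups, so this number is not above what chance gives. MYC liver 4 was such a library for 2 members, Mrps36 at 36.3 RPKM (next highest 26.04) and Mrps18c at 56.3 (next highest 33.9). It is the MYC liver with keratin reads. The first 4-OHT WT liver was highest for Mrpl3 at 5.01 RPKM (next 3.65) and for Mrpl45 at 7.64 (next 5.60). Mrpl12 reached 82.5 RPKM in Ex3 liver 5 (next 52.9), and Mrps16 reached 106 RPKM in MYC+Ex3 liver 3 (next 92.1). Mrps34 was lowest in MYC+Ex3 liver 5 at 11.3 RPKM (next 15.04).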

How the results depend on the processing

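No member was called lower and no called change of a named member reversed under any alternative, but the counts of members called higher moved. In brackets is the share of all genes called higher under the same setting. In MYC against WT livers (33 of 76), the count was 17 after rescaling (13.8%), 11 with only the compared groups in the fit (12.8%, against 14.5% of members) and 3 in the keratin-free livers (7.09%), where the members' median minus that of all genes was 0.129. In MYC+Ex3 against WT livers (36), it was 21 after rescaling (15%), 22 with a sex covariate (15.3%), 57 with quality weights (29.6%) and 6 in keratin-free livers (14.1%). In MYC+Ex3 against Ex3 livers (30), it was 48 with only the compared groups (18.9%), 54 with quality weights (30%) and 9 in keratin-free livers (12.4%). The median of the interaction minus that of all genes was 0.177 in keratin-free livers. In MYC tumours (65), the count was 37 with quality weights (29.2%), 41 with only the 4-OHT livers whose titles start with S14 (26.8%), and 32 with male libraries (24.7%). In MYC+Ex3 tumours (63), it was 24 with male libraries (25.7%). Without a filter on low values the members' median minus that of all genes was 0.514 and 0.576 in the MYC and MYC+Ex3 tumours. The cause of these moves was not tested. The keratin-free, S14 and male fits also held fewer libraries, and the part of that was not tested either.

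With each library left out in turn, the count ran from 20 (13.5%) to 51 (18.5%) in MYC livers, 22 (15.3%) to 48 (18%) in MYC+Ex3 livers, 19 (12.6%) to 36 (18.1%) against Ex3, 41 (27.3%) to 68 (38%) in MYC tumours and 51 (34%) to 68 (44.1%) in MYC+Ex3 tumours. The lowest counts came without MYC liver 4, without WT liver 2, without MYC+Ex3 liver 2 and without MYC tumour 3 in the first 4 of these. For the named members, 677 alternative values of called changes kept the call and 123 lost it, and with a library left out 1032 kept it and 116 lost it.

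Replicate numbers were given in accession order and pair nothing. The numbers in the day 4 titles fall into 7 series by their first 3 digits, some of which recur across genotypes, and no label says what they mean. With these series as a replicate block, a fit chosen after seeing the data, 15 members rose in MYC livers (10.6%), 18 in MYC+Ex3 livers (14%) and 19 against Ex3 (16%). Deviations from group means correlated at -0.39 to 0.552 (median 0.27) between livers of 1 series and different genotypes (26 pairs). In the 13 pairs of the largest series, whose 6 livers are all keratin-free, the correlation was 0.16 or more (median 0.362). In the 13 pairs of other series the median was 0.0398. Between different series and genotypes (124 pairs), correlations ran from -0.538 to 0.577, with a median of -0.0598. With the largest series alone as a batch term, 41, 35 and 35 members rose. The share of all genes under that setting is not given here. No series is shared between tumours and 4-OHT livers. Read number limits the lowest members, with 33 reads as the smallest count of a member in each arm.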
